A study of Mus musculus with 12 samples.

Results

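The genes described here are Gata1, Gata2, Gata3, Gata4, Gata5 and Gata6, which encode the GATA family of zinc finger transcription factors of the mouse, and Zfpm1, which encodes their cofactor FOG1. These 7 genes, all found, were chosen by name among the 21631 protein-coding genes of the annotation. Each was described by the peaks in its territory, the stretch of DNA up to 100 kb from its ends for which it was the closest protein-coding gene.

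The data were peak lists of H3K27ac, an acetylation of histone H3 found at active promoters and enhancers, and H3K4me1, a methylation that marks enhancers. They came from CoBATCH, which profiles marked chromatin in single cells with an antibody and a transposase. The cells were those of C57BL/6 mouse embryos, for which the labels name no transgene or treatment. Stages were given by morphology. Pre_PS embryos (day E6.0) had no primitive streak; ES embryos (E6.0 and E6.5), MS embryos (E6.0 and E7.0) and LS embryos (E7.0 and E7.25) were at the early, middle and late streak; OB embryos (E7.25 and E7.5) had no allantoic bud; EHF embryos (E7.5) were at the early headfold. Extraembryonic tissue had been taken off Pre_PS, ES, MS and LS embryos, whereas the labels do not state it for OB and EHF. Days overlap between neighbouring stages, and the labels do not say how many embryos were pooled.

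There was 1 peak list for each stage and mark, 12 in all, so no stage has a measure of replicate error and no difference was tested. The later 5 H3K27ac lists held 30072 to 39635 peaks over 35.9 to 42.1 Mb, and that of Pre_PS 13398 peaks over 14.3 Mb. For H3K4me1 the figures were 35646 to 47849 peaks over 39.1 to 51.3 Mb, and 36739 peaks over 23.4 Mb at Pre_PS. At Pre_PS 67.3% of H3K4me1 peaks stood at the lowest fold of their list, against 2.64 to 9.77% later. The Pre_PS lists thus covered fewer bases, and total fragments per library are not known, so the absence of a peak at Pre_PS may not be comparable with its absence later. Each list pools cells of several types, so fewer cells carrying a mark and less of the mark per cell cannot be told apart.

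GATA factors bind the sequence GATA through a pair of zinc fingers, and FOG1 binds the amino-terminal finger of the factor rather than DNA. Gata1 and Gata2 are known for their work in blood: Gata2 in stem and progenitor cells, Gata1 with FOG1 in red cells and megakaryocytes. Gata3 directs T cell fates and, with Gata2, acts in trophoblast and surface ectoderm. Gata4, Gata5 and Gata6 act in heart and endoderm, and Gata6 and Gata4 are early genes of the extraembryonic endoderm.

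The promoter of Gata1 is CpG-poor and carried no peak, while the other promoters at hand are CpG-rich and carried both marks. RefSeq sequences (GRCm38.p6, 250 bases before and 50 after a transcription start) were at hand for Gata1, Gata2 with 2 starts, Gata3, Gata5 and Zfpm1. Of these, 5 are printed, those of Gata1 at chrX:7967861-7968160 (minus strand), of the outer and inner start of Gata2 at chr6:88193641-88193940 and chr6:88198414-88198713 (plus strand), of Gata3 at chr2:9878551-9878850 (minus strand) and of Zfpm1 at chr8:122281891-122282190 (plus strand), to set the promoter without a peak beside those that carried both marks. Capitals mark each CG dinucleotide.
Gata1: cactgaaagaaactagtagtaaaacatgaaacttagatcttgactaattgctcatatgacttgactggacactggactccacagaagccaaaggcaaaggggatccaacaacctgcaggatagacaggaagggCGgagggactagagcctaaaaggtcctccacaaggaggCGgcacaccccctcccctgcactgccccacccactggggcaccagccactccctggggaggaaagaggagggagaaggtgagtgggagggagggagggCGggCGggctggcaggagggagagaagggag
Gata2, outer start: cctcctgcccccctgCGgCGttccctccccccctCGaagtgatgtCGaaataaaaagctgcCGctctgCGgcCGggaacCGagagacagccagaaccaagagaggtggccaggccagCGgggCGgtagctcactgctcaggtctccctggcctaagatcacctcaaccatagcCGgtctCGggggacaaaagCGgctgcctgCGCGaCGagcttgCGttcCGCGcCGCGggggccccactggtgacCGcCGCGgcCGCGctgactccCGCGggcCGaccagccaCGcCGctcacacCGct
Gata2, inner start: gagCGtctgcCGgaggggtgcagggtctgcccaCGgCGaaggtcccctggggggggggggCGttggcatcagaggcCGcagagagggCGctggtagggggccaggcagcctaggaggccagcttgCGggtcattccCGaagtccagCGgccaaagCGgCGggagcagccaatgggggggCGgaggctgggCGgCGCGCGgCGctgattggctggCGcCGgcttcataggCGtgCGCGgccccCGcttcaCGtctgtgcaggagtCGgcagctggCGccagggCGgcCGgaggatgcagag
Gata3: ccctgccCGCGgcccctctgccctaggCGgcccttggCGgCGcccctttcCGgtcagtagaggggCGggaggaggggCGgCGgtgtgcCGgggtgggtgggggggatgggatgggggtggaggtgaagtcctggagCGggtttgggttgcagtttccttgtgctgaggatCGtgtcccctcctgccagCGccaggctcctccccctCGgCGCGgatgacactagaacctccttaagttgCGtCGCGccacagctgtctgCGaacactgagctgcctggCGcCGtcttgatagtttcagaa
Zfpm1: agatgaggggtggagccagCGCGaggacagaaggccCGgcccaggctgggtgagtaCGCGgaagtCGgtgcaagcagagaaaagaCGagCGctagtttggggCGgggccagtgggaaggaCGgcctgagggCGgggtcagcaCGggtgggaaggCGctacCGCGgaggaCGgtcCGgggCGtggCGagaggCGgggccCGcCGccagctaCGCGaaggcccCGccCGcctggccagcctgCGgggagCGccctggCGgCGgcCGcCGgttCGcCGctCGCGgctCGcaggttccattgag

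The Gata1 window holds 4 CG dinucleotides, and its ratio of observed to expected CpG is 0.167. No peak of either mark touched it in any of the 12 lists. The Zfpm1 window holds 37 CG dinucleotides (ratio 0.956) and was covered over its full 300 bases by both marks at all 6 stages. At Gata2 the outer window (ratio 0.900) and the inner one (0.760) carried both marks at all 6 stages as well. Gata3 (0.658) and Gata5 (0.714; chr2:180334630-180334929, minus strand) carried H3K4me1 at all 6 stages and H3K27ac at the 5 later ones, with no H3K27ac peak at Pre_PS. At Pre_PS the H3K4me1 peaks over the outer Gata2 window and the Gata3 window stood at the lowest fold of their list.

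Promoters of other genes divided likewise. Of all 21045 promoters, 48.1% had a ratio of at least 0.6, and 93.0% of those carried H3K27ac at all 5 stages from ES to EHF, while 3.28% carried none at any stage. Under 0.6 the figures were 21.9% and 69.0%, this being the group to which Gata1 belongs. As forms of the GATA site, AGATAA as well as AGATAG and also TGATAA as well as TGATAG were searched on both strands. They occurred 1 time at Gata3 and at none of the other windows, against 25.8% of all promoters with at least 1 match and 13.6% of those with a ratio of at least 0.6. A stretch of letters can match only 1 of these 4 motifs on a strand, and a match describes the letters alone.

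**Figure D1:**
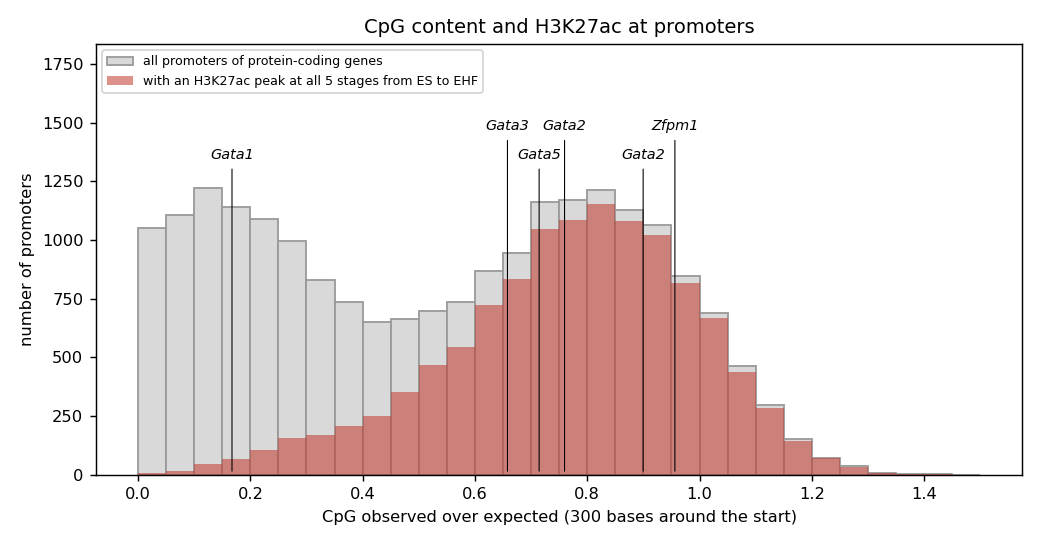
Number of promoters (vertical axis) by the ratio of observed to expected CpG in the 300 bases around the start (horizontal axis), for all promoters (grey) and those with an H3K27ac peak at all 5 stages from ES to EHF (red); lines mark the members with a promoter sequence. Gata1 stands at 0.167, among promoters that rarely carried the mark, and the others between 0.658 and 0.956.

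Gata1, the master regulator of red cell genes, lies on chromosome X at 7959260 to 7976663 and has a territory of 36.8 kb. Its share, the covered bases of the territory per covered Mb of the list, was 0 for H3K27ac at Pre_PS, ES, MS, OB and EHF and 7.05 bp per Mb at LS. For H3K4me1 it was 0 at Pre_PS, ES, MS and EHF, 6.82 at LS and 12.7 at OB. The gene was thus unmarked in 9 of the 12 lists.

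What Gata1 did carry was small and weak. The H3K27ac peak at LS spanned 297 bp (7959783 to 7960079), near the end of the gene away from its listed start, with the authors' fold at 3.68; by -log10 q, 87.5% of the LS peaks stood at or above its rank. H3K4me1 lay over the same place at LS and OB, in 350 and 311 bp (388 bp when merged), and at OB over a further 338 bp (7966192 to 7966529). Of all genes, 23.6% were covered by H3K27ac at 1 or 0 of the 5 later stages and 20.3% by H3K4me1, so coverage as sparse as that of Gata1 was common. The lncRNA Gm39488 spans the territory, and a peak cannot be assigned to one of 2 overlapping genes.

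Gata2, the family member of blood progenitors and trophoblast, lies on chromosome 6 at 88193891 to 88207032 and has a territory of 65.1 kb. Its H3K27ac share in bp per Mb, in stage order, was 321, 259, 272, 243, 313 and 280, and its H3K4me1 share 204, 249, 239, 246, 257 and 291. By share, H3K27ac was lowest at LS and highest at Pre_PS, and H3K4me1 was lowest at Pre_PS and highest at EHF. In covered bases H3K27ac was lowest at Pre_PS, with 4576 bp against 9760 to 11386 bp later, as that list covers less in all. It ranked 216 to 426 among all genes by H3K27ac share.

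The marks at Gata2 formed 4 blocks that kept their places from stage to stage. Relative to the outer start, H3K27ac regions merged over the stages ran from -4.66 to -2.74 kb, from -0.628 to 0.946 kb over that start, from 2.20 to 7.06 kb over the inner start, and from 8.51 to 12.3 kb inside the gene. The first 3 were present at all 6 stages. The fourth, at 88202400 to 88206226, had no H3K27ac at Pre_PS and covered 2608, 2692, 2277, 3827 and 2423 bp from ES to EHF, with H3K4me1 in 341 bp at Pre_PS and 2424 to 4028 bp later. Intragenic enhancers of Gata2 that act in blood and vessel cells are known from mouse studies; whether this block is one of them was not tested.

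The block over the inner start was the widest of Gata2, in H3K27ac (88196087 to 88200954, 4.87 kb) and in H3K4me1 (4.94 kb). Its H3K27ac covered 2164 bp at Pre_PS and 3811 to 4749 bp later. Inside-gene bases over 1 kb from any gene end made up 65.1 to 68.6% of the H3K27ac of Gata2 from ES to EHF, against 44.5 to 47.5% over all genes. Further out, peaks came and went: one region at -41.8 to -41.3 kb carried H3K27ac at ES and OB alone, and another at -29.4 to -29.1 kb at EHF alone, that peak being at the lowest fold of its list. The lncRNA Gm38708 overlaps all of these regions but the fourth block.

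Gata3, which directs T cell fates and acts in trophoblast and surface ectoderm, lies on chromosome 2 at 9857078 to 9887953 and has a territory of 144 kb. Its H3K27ac share was 28.0 bp per Mb at Pre_PS and 177, 194, 172, 194 and 201 from ES to EHF. Its H3K4me1 share was 158, 165, 200, 178, 172 and 214. H3K27ac was thus low at Pre_PS alone, and the 5 later stages stayed within a factor of 1.17, the narrowest range of the 6 covered members for H3K27ac.

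Most of the H3K27ac at Gata3 sat in a domain of 6.38 kb over the start (9876747 to 9883128, from -4.53 to 1.85 kb). Only 399 bp of it were covered at Pre_PS, and 6.24 to 6.38 kb at each later stage. H3K4me1 covered 2439 bp there at Pre_PS and 6367 to 7130 bp later. Of the bases at Pre_PS, 1931 bp were a peak at the lowest fold of that list. The widest H3K4me1 region of Gata3 was 7.23 kb. A second region at 3.29 to 4.38 kb inside the gene (9874218 to 9875312) had no H3K27ac at Pre_PS and 732, 711, 865, 702 and 995 bp after it. At Pre_PS H3K4me1 covered 382 bp of it, also in a peak at the lowest fold.

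Apart from these 2 regions, the Gata3 territory held no H3K27ac except 340 bp at ES, 19.9 to 20.2 kb from the start (9858364 to 9858703), and 100% of its H3K27ac lay inside the outer ends of the gene at each later stage. H3K4me1 was present at 5 further places, among them 747 bp at the same spot (9858040 to 9858786), at 5 of 6 stages but not at EHF. The lncRNAs 4930412O13Rik and 9230102O04Rik overlap the domain.

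**Figure D2:**
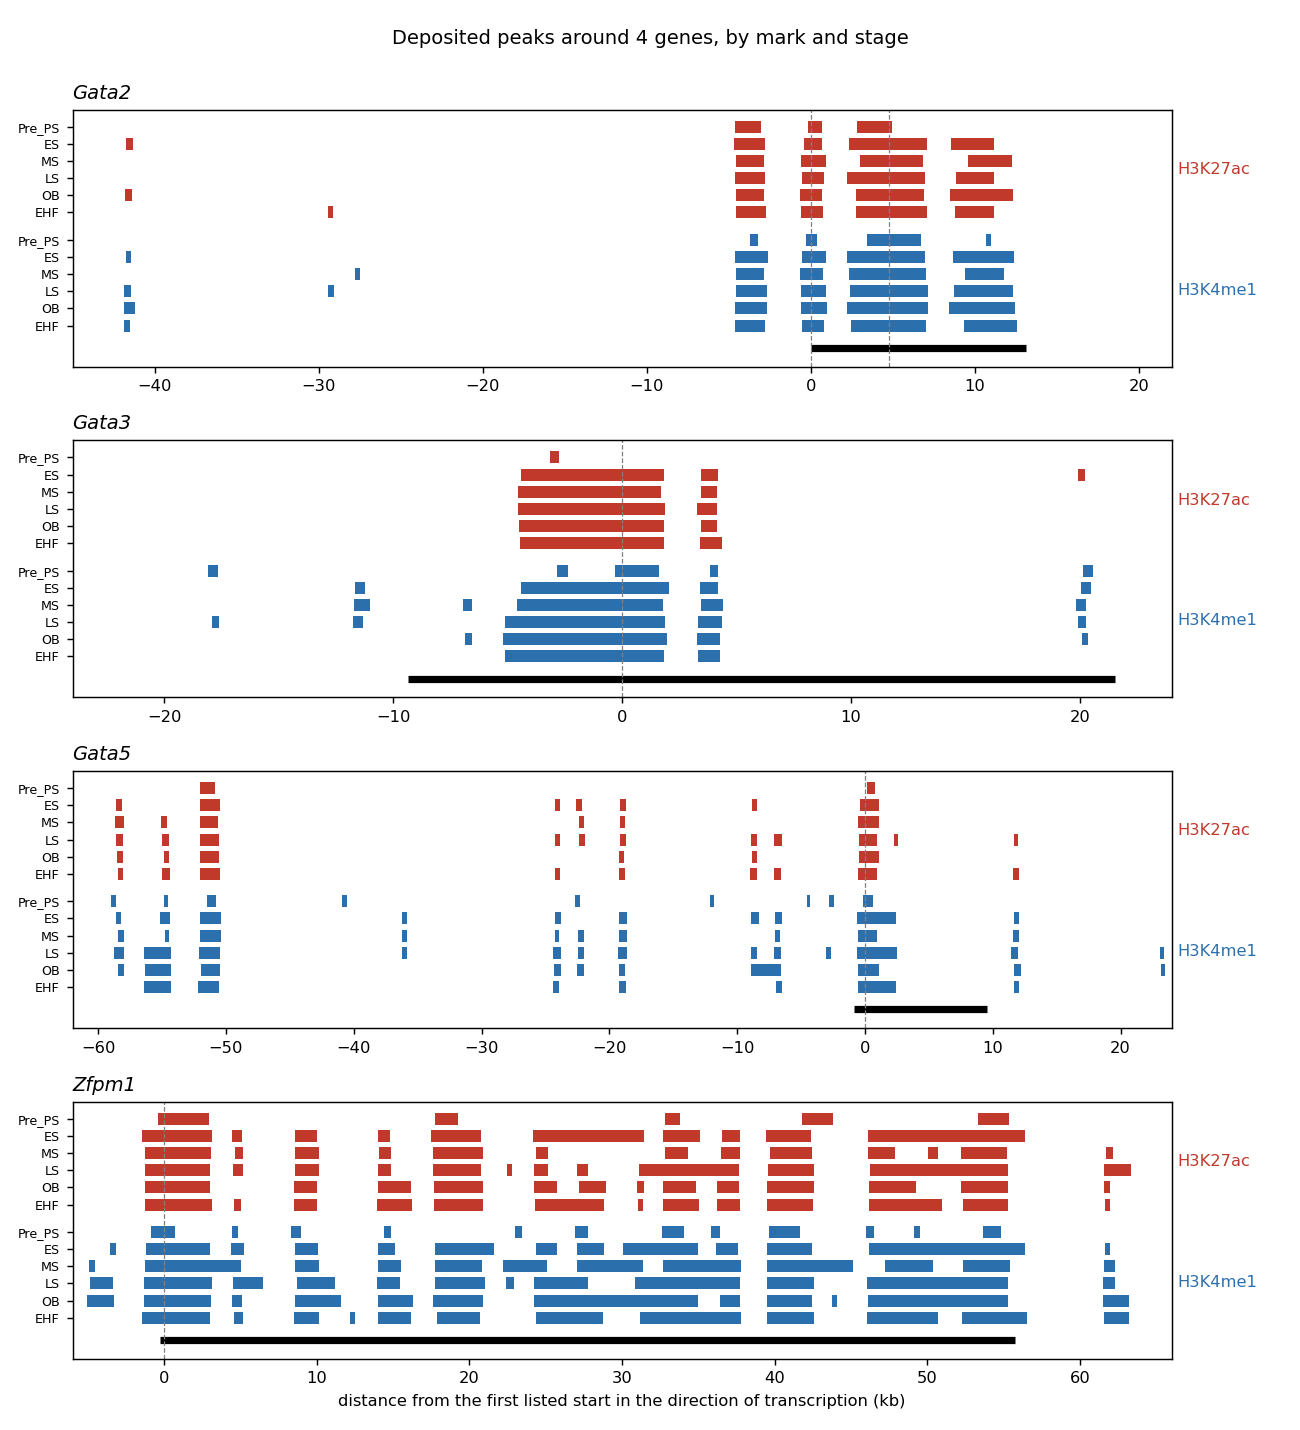
Deposited peaks of H3K27ac (red) and H3K4me1 (blue) at each stage around Gata2, Gata3, Gata5 and Zfpm1, by distance in kb from the first listed start in the direction of transcription; black bars are the genes and dashed lines their listed starts. Gata2 shows 4 stable blocks, Gata3 a domain of 6.38 kb that is 399 bp at Pre_PS in H3K27ac, Gata5 scattered peaks upstream, and Zfpm1 peaks along the gene.

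Gata4, a factor of heart and endoderm, lies on chromosome 14 at 63198914 to 63271712 and has a territory of 126 kb. Its H3K27ac share in stage order was 111, 128, 140, 128, 152 and 154 bp per Mb, and its H3K4me1 share 136, 123, 122, 122, 163 and 151. Both late stages, OB and EHF, stood above each earlier stage in both marks. For H3K4me1 at OB this rested on weak peaks, described below.

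No peak of either mark lay within 1 kb of the outer ends of Gata4 in any of the 12 lists. From ES to EHF, 95.6 to 100% of its H3K27ac lay inside the gene, in 5 regions. The widest, at 63244618 to 63247017 (2.40 kb, and 2.52 kb in H3K4me1), covered 2136 to 2276 bp from ES to EHF and had none at Pre_PS, where H3K4me1 covered 1474 bp. A region at 63239568 to 63241745 was the only one with H3K27ac at all 6 stages (1588 bp at Pre_PS, 1183 to 1573 bp later), and it held the highest-ranked H3K27ac peak of Gata4 at ES, with the authors' fold at 14.9. No start of Gata4 is given in the promoter table used here, so neither region was placed against one.

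The H3K4me1 peak over that place reached the authors' fold of 23.1 at OB and stood in the top 0.899% of the OB list by -log10 q. H3K4me1 covered 8316 bp at Gata4 at OB, against 5399 to 6269 bp at the other later stages. The excess lay in 2 regions near the lower-coordinate end of the gene (63200240 to 63201590 and 63203470 to 63204471). They covered 1351 and 982 bp at OB and none at ES, MS, LS and EHF. The OB peaks there were weak, with the authors' fold at 3.28 and 3.76. In no other Gata4 region did H3K4me1 coverage at OB exceed that of every other later stage. Both peaks rank too low to be kept in 2 of the settings used below, the same number of peaks and the upper 50% of each list. With these settings Gata4 was not counted as higher in H3K4me1.

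Gata5, which acts in endocardium and endoderm, lies on chromosome 2 at 180325088 to 180335503 and has a territory of 88.4 kb. Its H3K27ac share was 131, 127, 137, 167, 129 and 178 bp per Mb, high at LS and EHF and lower at OB. The H3K4me1 share was 173, 181, 149, 233, 207 and 222, and LS, OB and EHF all stood above ES and MS.

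Gata5 carried most of its H3K27ac outside the gene: 67.2 to 77.3% of its H3K27ac from ES to EHF lay beyond its ends and over 1 kb from any gene end, against 13.1 to 16.4% over all genes. Of its 11 H3K27ac regions, 9 lay outside. The widest, of 1.63 kb when merged over the stages, was over the start (180333573 to 180335202). It was present at all 6 stages, with 641 bp at Pre_PS and 1445 to 1592 bp later. The Pre_PS peak lay past the start, at 0.183 to 0.823 kb. The H3K4me1 there reached the authors' fold of 25.7 at OB, within the top 0.421% of that list, and formed the widest region of Gata5 over the stages (3.07 kb).

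The widest H3K27ac region away from gene ends was 1.59 kb at -52.1 to -50.5 kb (180385160 to 180386749), again at all 6 stages. It covers an end of Mir1a-1hg, the host gene of the muscle microRNA Mir1a-1, and an end of the lncRNA B230312C02Rik. Protein-coding genes alone set the territories, so the assignment of this region and the 2 beyond it to Gata5 is one of distance. Without these 3, a choice made after seeing the data, the H3K27ac of Gata5 would be the region over the start and 7 smaller ones of 0.354 to 0.680 kb. The part outside the gene would then be 54.3, 33.4, 59.3, 32.8 and 61.9% from ES to EHF, so at MS and OB most of it would lie in or near the gene.

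Gata6, an early gene of extraembryonic endoderm that also acts in heart, lies on chromosome 18 at 11052510 to 11085636 and has the longest territory, 233 kb. Its H3K27ac share was 179, 134, 131, 144, 147 and 162 bp per Mb, highest at Pre_PS, and its H3K4me1 share 149, 128, 128, 121, 116 and 154. In covered bases its H3K27ac was lowest at Pre_PS, with 2558 bp against 4702 to 6053 bp later. The main region spanned 3.84 kb at the lower-coordinate end (11051678 to 11055520), with 1868 bp of H3K27ac at Pre_PS and 3518 to 3843 bp later.

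Smaller Gata6 regions lay at 11048082 to 11048938, in the antisense transcript gene Gata6os, and inside the gene at 11058720 to 11059463 and 11077191 to 11077897. None had H3K27ac at Pre_PS, and the one in Gata6os and the last had it at all 5 later stages. A region at 11008602 to 11009291 carried H3K27ac at Pre_PS alone (690 bp, the authors' fold at 5.70). It was the only one of the 43 H3K27ac regions of the members seen at Pre_PS and at no later stage.

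Zfpm1, the FOG1 gene, lies on chromosome 8 at 122281856 to 122337862 and has a territory of 69.7 kb. Its H3K27ac share in stage order was 696, 837, 629, 776, 772 and 877 bp per Mb, and its H3K4me1 share 448, 713, 852, 767, 814 and 937. EHF was the highest stage in both marks. By H3K27ac share it ranked 10 to 29 of the 21631 genes at the 6 stages, and by H3K4me1 share 9 to 23 from ES to EHF.

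The marks of Zfpm1 ran along the gene. Of its 10 H3K27ac regions, 7 lay inside the gene and 5 were present at all 6 stages, and 86.9 to 91.0% of its H3K27ac from ES to EHF was inside the gene over 1 kb from an end. The widest merged region was 13.6 kb (122306312 to 122319875; 15.6 kb in H3K4me1). Coverage within it varied between lists, with 1008 bp at Pre_PS and 10811, 3517, 8119, 7356 and 8737 bp of H3K27ac from ES to EHF. At MS the same stretch had 12318 bp of H3K4me1, so its low H3K27ac at MS had no counterpart in H3K4me1 within this stretch.

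The other wide region, of 10.3 kb, covered the far end of the gene (122328225 to 122338516), with 2020 bp at Pre_PS and 5389 to 10262 bp later. Of the later stages MS was lowest there in both marks. H3K4me1 at that end covered 6202 bp at MS and 8885 to 10209 bp at the other later stages. The region over the start was narrower (4.55 kb) and steadier, at 4268 to 4545 bp of H3K27ac from ES to EHF. It held the top H3K27ac peak of the gene at ES, MS, OB and EHF, and the authors' fold there was 23.5 at EHF. A region 13.9 to 16.3 kb into the gene (122296088 to 122298391) covered 815, 773 and 836 bp at ES, MS and LS and 2208 and 2304 bp at OB and EHF.

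**Figure D3:**
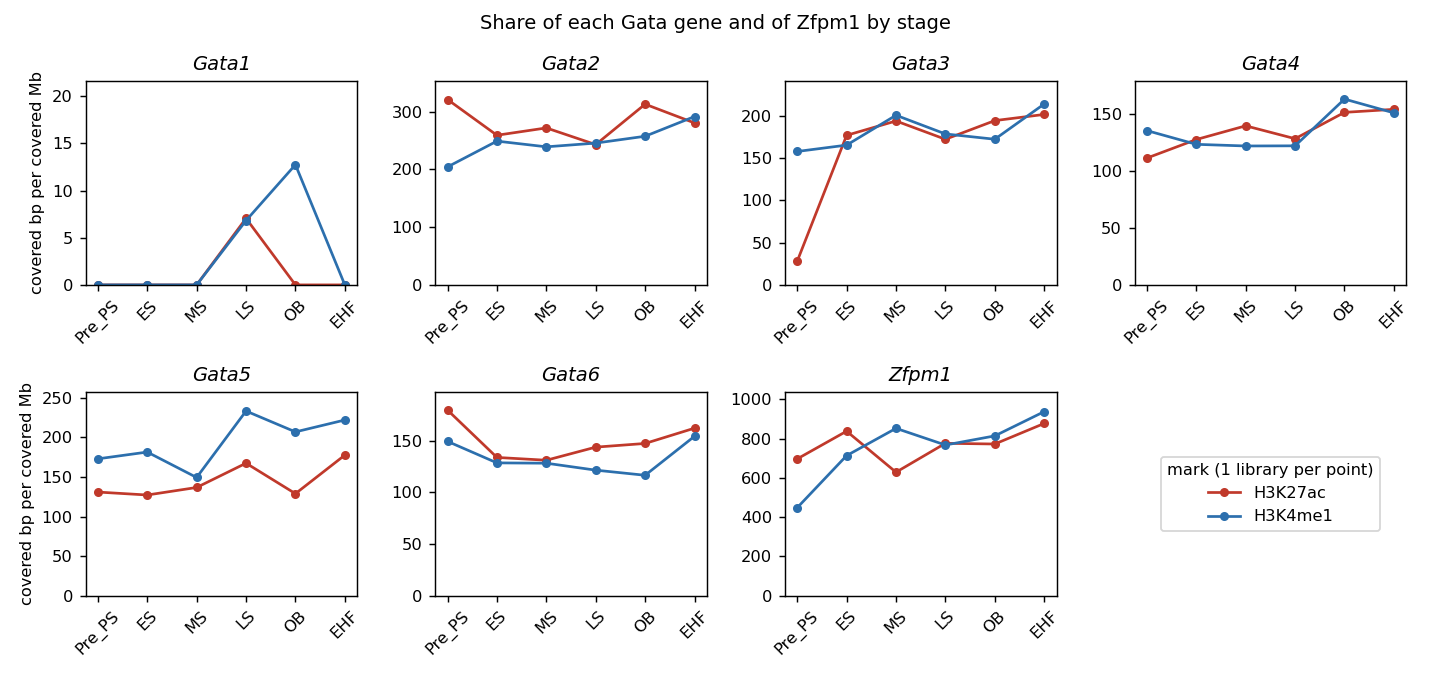
Share of each gene (vertical axes, covered bp per covered Mb, each panel from 0 with its own scale) by stage for H3K27ac (red) and H3K4me1 (blue); each point is 1 library. H3K27ac of Gata3 steps from 28.0 at Pre_PS to 177 at ES, Gata1 is at 0 in most lists, and Zfpm1 reaches 877 and 937 at EHF.

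Side by side, and per length, the members kept the same order in H3K27ac from ES to EHF, with all regions counted. By the percent of the territory covered with H3K27ac, the order from ES to EHF was Zfpm1, Gata2, Gata5, Gata3, Gata4, Gata6 and Gata1 at each of the 5 stages. H3K4me1 gave that order at all stages but OB, where Gata4 (6.61%) stood above Gata3 (6.08%). At Pre_PS the H3K27ac order differed, with Gata4 (1.26%) and Gata6 (1.10%) above Gata3 (0.277%).

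The distances between neighbours were unequal. From ES to EHF, H3K27ac covered 32.4 to 49.8% of the Zfpm1 territory and 15.0 to 17.5% of that of Gata2. Gata5 had 5.31 to 7.98%, Gata3 4.82 to 5.08%, Gata4 3.99 to 4.44% and Gata6 2.02 to 2.60%, with a median over all genes of 1.45 to 1.72%. With all regions counted, each neighbouring pair was separate over these 5 stages, as no range overlapped the next. In H3K4me1 the ranges of Gata3 (5.65 to 6.35%) and Gata4 (4.29 to 6.61%) overlapped, and the others did not. Territory lengths enter this measure, and that of Gata6 holds long stretches without peaks. The place of Gata5 rested on the 3 regions at Mir1a-1hg, which are assigned to it by distance. Without them 2293 to 4419 bp of H3K27ac were left in its 88.4 kb from ES to EHF. That would put Gata5 below Gata3 at each of these stages, and below Gata4 at each but LS. In H3K4me1 4149 to 7517 bp were left, which would put Gata5 below Gata3 at MS and EHF.

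**Figure D4:**
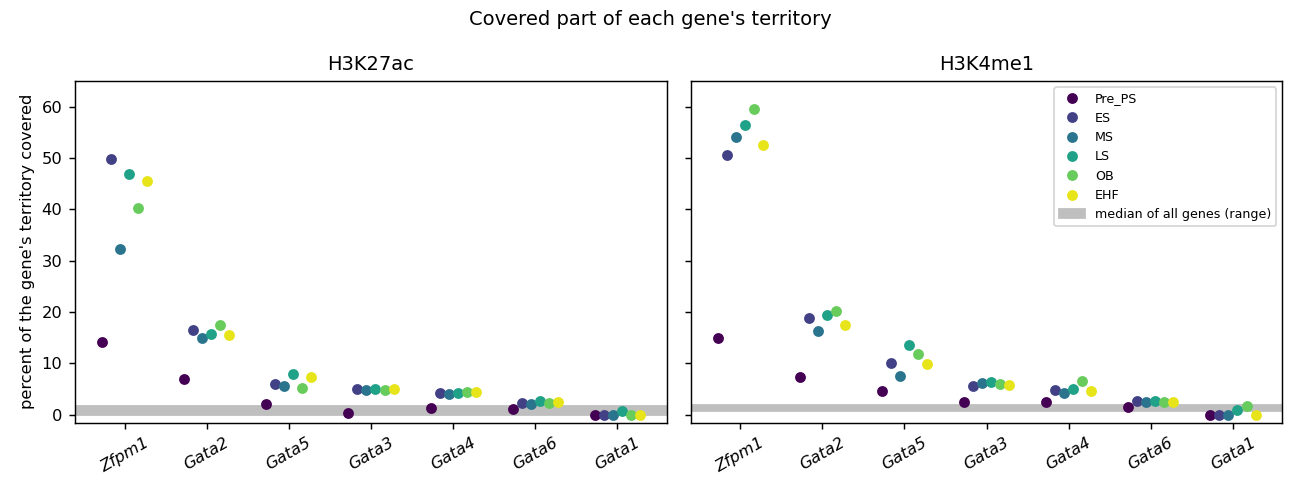
Percent of each gene's territory covered by H3K27ac (left) and H3K4me1 (right), with 1 point per stage; the grey band is the range of the median over all genes at the 6 stages. Zfpm1 lies at 32.4 to 59.5% from ES to EHF and Gata2 at 15.0 to 20.2%. Gata1 lies at 0 in most lists and reaches 1.76% in H3K4me1 at OB, where the median of all genes is 1.97%.

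The next comparison asks whether the genes took a larger part of the marked chromatin late (OB and EHF) than early (ES and MS). Pre_PS was left out of the early group for these differences in its lists. A gene was counted as higher where both late shares stood above both early ones, and as lower in the opposite case. In H3K27ac 4 of 7 members were higher (Gata2, Gata3, Gata4 and Gata6) and 0 lower, beside 19.9% and 12.6% of all 17464 covered genes. In H3K4me1 3 of 7 were higher (Gata2, Gata4 and Gata5) and 0 lower, beside 13.9% and 12.8% of 18418 genes. The Gata4 call in H3K4me1 rested on the weak OB peaks given above.

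With all peaks, in H3K27ac the ratio of late to early mean share was 1.12 for Gata2, 1.07 for Gata3, 1.14 for Gata4, 1.16 for Gata5, 1.17 for Gata6 and 1.12 for Zfpm1, with a median of 1.03 over all genes. For Gata3 the margin was between 193.6 at MS and 194.0 at OB. For Gata2 it was between 271.8 at MS and 280.4 at EHF, where a 302 bp peak at the lowest fold is included. Without peaks at the lowest fold Gata2 was not counted as higher in H3K27ac. In H3K4me1 the ratios were 1.12 for Gata2, 1.06 for Gata3, 1.28 for Gata4, 1.30 for Gata5, 1.05 for Gata6 and 1.12 for Zfpm1, with a median of 1.02. With all peaks and these stages no member passed when a ratio of 1.5 was asked for as well, a rule that 4.44% (higher) and 5.03% (lower) of genes met in H3K27ac and 3.28% and 5.70% in H3K4me1.

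The calls and the size of the ratios depended on which peaks and stages were used. With the same number of peaks taken from each list by -log10 q (13398 for H3K27ac), Gata2, Gata3, Gata4, Gata5 and Gata6 were higher in H3K27ac and 0 members lower, beside 23.9% and 11.9% of genes. The H3K27ac ratios then reached 1.96 for Gata3, 1.64 for Gata4 and 1.42 for Gata5. In H3K4me1 that setting gave Gata2 and Gata5 as higher and 0 as lower, beside 14.1% and 14.7%. Without peaks at the lowest fold, Gata3, Gata4 and Gata6 were higher in H3K27ac and 0 lower, beside 20% and 12.6%. In H3K4me1 Gata2, Gata4 and Gata5 were then higher and 0 lower, beside 13.4% and 12.4%.

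With the upper 50% of each list by -log10 q, Gata6 alone was higher in H3K27ac and Gata2 and Gata4 were lower, beside 14.9% and 11.6% of genes. In H3K4me1 Zfpm1 alone was then higher and 0 lower, beside 11.5% and 9.12%. With covered bp not divided by the covered Mb of the list, Gata4 alone was higher in H3K27ac and 0 lower, beside 12.1% and 20.1%, and in H3K4me1 0 were higher and 0 lower, beside 10.7% and 15.7%. With Pre_PS and ES as the early stages 2 members were higher in H3K27ac (Gata3 and Gata4) and 0 lower, beside 21% and 9.99% of genes, and in H3K4me1 5 were higher (Gata1 and Gata6 were not) and 0 lower, beside 18.1% and 12.4%. The ratio with those stages was 1.93 for Gata3 in H3K27ac and 1.51 for Zfpm1 in H3K4me1. With LS and OB as the late stages, Gata6 alone was higher in H3K27ac and 0 lower, beside 14.5% and 14.9%. In H3K4me1 that choice gave Gata1 and Gata5 as higher and Gata6 as lower, beside 13.5% and 22.1%. OB and EHF are also the stages for which the labels do not state that extraembryonic tissue was removed.

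**Figure D5:**
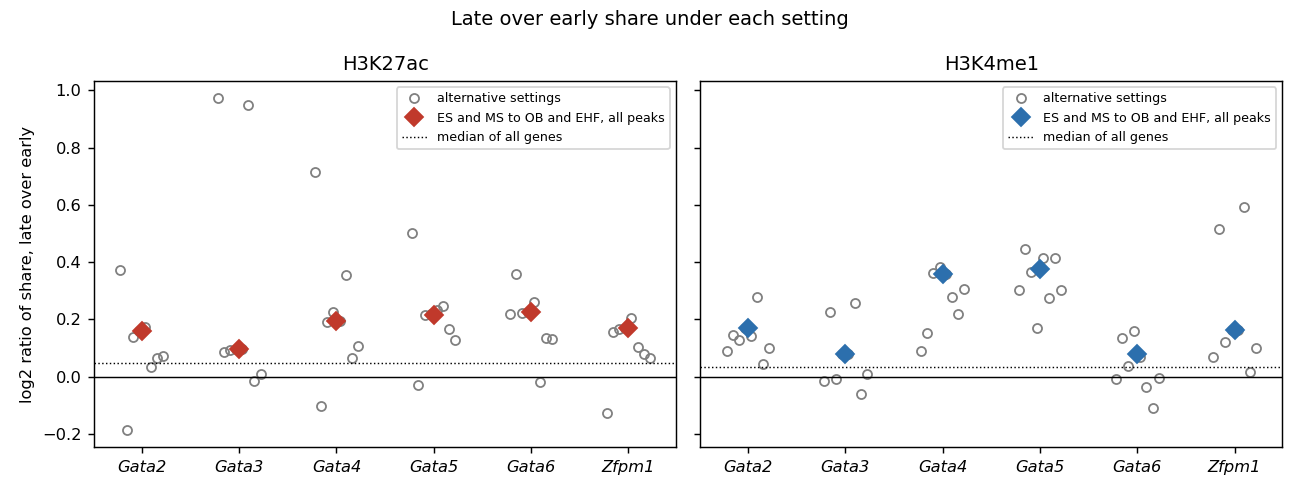
Log2 ratio of the mean late share over the mean early share (vertical axis) of the 6 covered members, for H3K27ac (left) and H3K4me1 (right); diamonds show ES and MS against OB and EHF with all peaks, circles the 8 alternative settings, and the dotted line the median of all genes. The diamonds lie between 0.08 and 0.37, and for H3K27ac each gene has 1 circle below 0. For H3K4me1 only Gata3 and Gata6 have circles below 0.

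Of the 43 H3K27ac regions of the members, 4 had no peak at Pre_PS or ES but a peak at 2 or more of the 4 stages after ES, beside 10.3% of all 51619 regions. At all 6 stages 13 of the 43 were present, beside 21.5%. For H3K4me1, 20 of 59 regions were present throughout, beside 20.7% of 77300.

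Of the 4 late H3K27ac regions, 3 belonged to Gata5. One, at 180322622 to 180323077, lay 2.01 kb from the gene end away from its start, and one, at 180341186 to 180341807, lay 5.68 kb from the other end in the lncRNA Gm52543; both had H3K27ac at LS and EHF and H3K4me1 from ES on. The other, at 180389081 to 180389738, overlapped Mir1a-1 and had H3K27ac in 434, 570, 444 and 566 bp from MS to EHF. H3K4me1 covered 324 bp of it at Pre_PS, 658 bp at ES and 300 bp at MS. The Pre_PS and MS peaks of H3K4me1 there stood at the lowest fold of their lists. The late region of Zfpm1 (122343725 to 122345486), 5.86 kb beyond the far end of the gene and overlapping the lncRNA Gm46056, had 469, 1759, 396 and 318 bp from MS to EHF and H3K4me1 from ES on. In all 4 places H3K4me1 was thus listed at ES, where the choice of these regions itself required that H3K27ac was not. The H3K4me1 list at ES held more peaks (47849) than the H3K27ac list (36930).

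Where H3K27ac was present from ES on, H3K4me1 mostly was too. From ES to EHF, 81.3 to 100% of the H3K27ac bases of a covered member also carried H3K4me1, beside 83.1 to 91.9% over all genes. At Pre_PS this was 26.8% (Gata3) to 57.9% (Gata5), beside 46.7% over all genes. Gata1 apart, Gata5 had the least H3K27ac on its H3K4me1 bases at ES, LS, OB and EHF (52.2, 56.2, 43.2 and 60.3%), and Zfpm1 at MS (54.5%). Over all genes that figure was 65.7 to 78.1% at those 4 stages and 67.5% at MS.

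Partners and targets of the GATA factors were set beside them as lists, read against the same background of 19.9% higher and 12.6% lower in H3K27ac, and of 13.9% and 12.8% in H3K4me1. Of 15 blood genes, 5 were higher and 0 lower, with a median ratio of 1.16 over the 12 covered. Spi1, a driver of myeloid fate that opposes Gata1, had early shares of 72.8 and 101 bp per Mb and late shares of 169 and 135. Tal1, a partner of Gata1 and Gata2 in blood complexes, had 115 and 119 against 136 and 149, and Epor, the erythropoietin receptor gene, 105 and 115 against 119 and 140. In H3K4me1 0 of the 15 were higher and 1 was lower.

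The 3 globin genes of the list carried almost no peaks. Hbb-y and Hbb-bh1, embryonic beta-like globin genes and targets of Gata1, were at 0 in all 12 lists. Hba-x, the embryonic alpha-like globin gene, was at 0 in 11 and at 6.16 bp per Mb in H3K4me1 at LS.

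Of 11 cardiac genes, 4 were higher and 2 lower in H3K27ac (median ratio 0.970). Smarcd3, a chromatin remodeller subunit of the heart, had 75.2 and 126 bp per Mb against 188 and 126 (125.5 at MS, 125.7 at EHF). Tbx20 had 54.6 and 63.6 against 78.4 and 90.0, and Isl1, a factor of cardiac progenitors, 57.0 and 62.0 against 79.4 and 85.8. The genes counted as lower, Myocd and Nppa, had fewer than 2 kb covered on average. In H3K4me1 2 were higher and 2 lower.

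Of 12 endoderm genes, 4 were higher and 0 lower in H3K27ac (median ratio 1.09 over 9), and 1 was higher and 1 lower in H3K4me1. Foxa2, a factor of endoderm and node, had 148 and 152 bp per Mb against 174 and 185. Amn, which encodes an endocytic receptor partner in visceral endoderm, had 88.1 and 90.9 against 97.5 and 102, and Col4a1, a basement membrane collagen gene, 70.9 and 77.2 against 83.1 and 77.6. Of the visceral endoderm markers, Afp was at 0 in all 12 lists and Ttr in 11, whereas Apoa1 had an H3K27ac share of 0 at Pre_PS, of 19.0 to 41.5 bp per Mb from ES to OB and of 59.3 at EHF. The summed H3K27ac share of the list was 642 to 675 bp per Mb early and 696 to 746 late.

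Of 12 genes of trophoblast and surface ectoderm, 3 were higher and 1 lower in each mark (median ratio 1.15 over 11 in H3K27ac). Grhl3, a regulator of epidermal differentiation, had 88.6 and 115 bp per Mb against 134 and 125. Cdx2, a factor of trophectoderm and the posterior embryo, had 128 and 145 against 164 and 164, and was higher in H3K4me1 too. Msx2 had 93.7 and 99.8 against 116 and 108 in H3K27ac and was lower in H3K4me1. Eomes, a gene of both trophoblast and streak, was the lower one in H3K27ac, with 130 and 124 against 97.8 and 96.4.

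These 12 genes include markers of extraembryonic ectoderm, and 11 of them were covered. Their summed H3K27ac share was 1360 and 1391 bp per Mb early and 1469 and 1497 late. Prl3d1, a trophoblast giant cell hormone gene, was at 0 in all 12 lists, and Elf5 had at most 15.0 bp per Mb in any. Other genes of the list carried H3K27ac at all 6 stages. Among them were Ascl2 with 75.9 to 170 bp per Mb, Tead4 with 34.7 to 138 and Tfap2c with 249 to 344. The part of extraembryonic cells in the higher late shares of Gata2, Gata3, Gata4 and Gata6 was not tested.

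Of 6 other genes with GATA-type fingers or GATA-domain names, 0 were higher and 1 lower in H3K27ac (median ratio 0.989), and 3 were higher and 0 lower in H3K4me1.

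The genes most like each member over the 10 lists from ES to EHF were named by Pearson's r of their shares, each mark scaled over its 5 stages, among 14532 genes covered in all 10. They were Rasl10a (0.966) and Cdc42se2 (0.961) for Gata2, Praf2 (0.996) and Tpm3 (0.993) for Gata3, Acot1 (0.976) and Abcb1b (0.965) for Gata4, Mns1 (0.961) and Nabp1 (0.951) for Gata5, Hoxc4 (0.966) and Ube2a (0.965) for Gata6, and Rtn4rl1 (0.965) and Tmed1 (0.951) for Zfpm1. No member was the nearest gene of another. Between members r ran from 0.0437 (Gata3 and Gata5) to 0.740 (Gata2 and Gata4). These values describe 10 points that share libraries and total coverage, and the highest of 14532 values is high by selection.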

How the data were processed

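The build is mm10 and the tools named are Bowtie2, MACS2, Picard and deepTools, per the submitters' processing notes; for versions, settings and cell numbers, nothing is given in the sources used here. Each of the 12 deposited files is a broad peak list of 1 stage and mark. The deposited fold of a peak is the authors' ratio over background, and their peak caller also gave the deposited -log10 q and -log10 p. Fold and -log10 q served for description and for ranking within a list. The score that the authors deposited, within 1 of 10 times -log10 q in every row, was not used.

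Peaks of the autosomes and X entered the analysis, made with Python 3.11.15, NumPy 2.4.6 and pandas 2.3.3. Genes were the 21631 protein-coding genes of RefSeq GRCm38.p6, the assembly mm10 names, with their outer ends. A base belonged to the gene with the nearest end within 100 kb, and to both genes where an end is shared, which is so for no member. The share divides covered bases by the covered Mb of the list, so it is relative: a gene can rise in share because others take less. Total fragments per library are not known here, so no count model applies. Peaks were merged over the 6 stages of a mark into regions, present at a stage with at least 1 bp of overlap. Tested on simulated data, covered bases per territory matched a base-by-base count for all 128 genes made up for the test.

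All 7 members are named. From each list, up to 3 genes without overlap of early and late H3K27ac shares, with the largest ratio and at least 2 kb covered, are named in each direction, and per member the 2 genes of highest correlation. The regions named by rule are, per member, the widest H3K27ac region over 1 kb from any gene end, the widest of either mark, and the late ones. All other regions and the CpG measure with its limit of 0.6 were chosen after their values were seen. So were the list genes at 0, Apoa1, Cubn, Myocd, Nppa, Elf5, Ascl2, Tead4 and Tfap2c. The members and lists were chosen with earlier results of these data known. A search for zinc fingers in the proteins had been planned, but no protein table was used here. Alternatives were other peak subsets, territory limits, early and late stages, scale, fold and overlap.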

Additional observations from a re-analysis of the deposited data

How the results depend on the processing

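No paired analysis was possible because each stage and mark has 1 library, so leaving out a replicate was impossible too. The number of members with higher late H3K27ac was 4 in the main setting and 1 with LS and OB as late stages. It was 2 with Pre_PS and ES as early stages and 1 with covered bp not divided by covered Mb. It was 1 with the upper 50% of each list and 0 with a ratio of 1.5. Without peaks at the lowest fold it was 3, as Gata2 was no longer counted. The upper 50% also gave 2 lower. For H3K4me1, 3 in the main setting, it was 5 with Pre_PS and ES, 0 with undivided covered bp, 1 with the upper 50% and 0 with a ratio of 1.5, and LS and OB gave 1 lower. Log2 ratios in H3K27ac reversed for Gata2 (-0.19) and Gata4 (-0.10) with the upper 50%, for Gata3 (-0.0166) with LS and OB, and for Gata6 (-0.0184) with Pre_PS and ES; those of Gata5 (-0.0312, upper 50%) and Zfpm1 (-0.13, same number of peaks), not counted as higher in the main setting, changed sign too. In H3K4me1 the log2 ratio was above 0 in 5 of 9 settings for Gata6 (lowest -0.109) and in 6 of 9 for Gata3 (lowest -0.0611). For each other covered member it was above 0 in all 9. The cause was not tested. Without the regions at Mir1a-1hg, an alternative chosen after seeing the data, Gata5 was still higher in H3K4me1 (log2 ratio 0.22) and not in H3K27ac (0.22). H3K27ac regions at all 6 stages, 13 in the main setting, numbered 5 where 50% of a region had to be covered and 6 with the upper 50%. H3K4me1 regions, 59, numbered 32 with the upper 50%. Those at all 6 stages, 20, numbered 3, 9 and 10 with 50% covered, the upper 50% and no peaks at the lowest fold. The shares of all regions at all 6 stages, 21.5% and 20.7%, are from the main setting alone. The counts under the other settings therefore have no such share beside them. Total fragments per library are not known, which limits what can be said of Pre_PS, whose lists hold fewer covered bases.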
